A study of Mus musculus with 6 samples.

Results

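The T cell receptor (TCR) complex and the proteins that carry its signal from the membrane inwards were followed through 41 genes, looked up by symbol in the deposited table of estimated counts per gene. All 41 were found among the 78275 genes listed, and all 41 were among the 16105 genes with enough counts to be tested. They fall into 9 classes by the known role of the protein. These are 4 CD3 chains, 2 costimulatory and adhesion receptors, 5 activating kinases, 8 adaptors and scaffolds, 6 genes for the lipase, exchange factors and GTPase effectors, 2 members of the CARMA1-BCL10-MALT1 complex, 2 NFAT factors, 3 phosphatases and 9 negative regulators.

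As background, the α and β chains of the TCR bind a peptide on an MHC molecule but have no signalling tails of their own. The signal enters the cell through the tails of the associated CD3γ, CD3δ, CD3ε and ζ chains. The kinase LCK phosphorylates these tails, and ZAP70 docks on them and phosphorylates the adaptors LAT and SLP-76. The scaffold that assembles there drives calcium entry to NFAT, the Ras cascade and NF-κB. Some phosphatases, the kinase CSK, ubiquitin ligases and diacylglycerol kinases hold the signal back. The phosphatase CD45 instead clears an inhibitory phosphate from LCK. The strength of this signal is known to decide which thymocytes are selected into the CD8+ lineage and how responsive a naive CD8+ T cell is.

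RNA was sequenced from CD4-CD8+ TCRβhigh T cells of 3 wildtype (WT) and 3 BIT mice, and each mouse gave 1 library. BIT mice carry the β5i β5t allele on both chromosomes, on a C57BL/6 background. In this allele the sequence for the thymoproteasome subunit β5t (*Psmb11*) was placed at the start codon of the gene for the immunoproteasome subunit β5i (*Psmb8*). By this design thymoproteasomes would form in cells that otherwise make immunoproteasomes, and the paper calls it plausible that they assemble and function. The allele acts in all cells that use the *Psmb8* gene, in the T cells as well as in the cells that selected them. Several independent lines were made, with different modifications of *Psmb8*. The study used a single line with the start codon design unless it says otherwise. The labels do not name the line that gave the RNA. All mice were 9 to 10 weeks old and labelled male. The T cells were labelled as coming from lymph nodes, with the spleen also named in the protocol, and the total RNA was depleted of ribosomal RNA. The comparison asks how far transcripts of the signalling machinery differ between CD8+ T cells of WT mice and of mice with β5t in place of β5i. The loss of β5i and the gain of β5t cannot be told apart in it. *Psmb8* had between 8024 and 10790 counts in the WT and between 59 and 73 in the BIT libraries, and *Psmb11* had 0 counts in every WT library and between 1226 and 1926 in the BIT libraries.

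The libraries held between 37467678 and 52922675 estimated counts, of which the 41 genes took between 1.2% and 1.35%, and the lowest count of any of them in any library was 873, for *Ubash3b*. The library labelled WT 3 stood apart, since *Xist* had 66626 counts in it and the Y-linked genes had 0, against at least 8474 in the others, which goes against its label. It also held 2444 counts of *Gzma*, a granzyme of cytotoxic cells, against 152 to 427. Counts of genes, several class medians and several single genes are therefore also given without it. Levels in CPM, a count scaled to the total of its library, summed over 6 markers of CD8 T cells were 4006 to 4388 in the WT and 4138 to 4372 in the BIT libraries, and those over 4 markers of CD4 T cells were 3.62 to 5.68 and 3.22 to 4.48. The sums over 8 B cell markers, mostly *Ighm*, were 342 to 360 in WT and 331 to 367 in BIT mice, and those over 10 myeloid markers were 12.8 to 20.7 and 10.4 to 13.1. The sums over 4 NK cell markers were 5.52 to 63.9 in WT and 5.23 to 8.62 in BIT mice. The highest was that of WT 3 and was mostly *Gzma*, at 61.2 CPM. The sums over 6 markers of erythroid cells and platelets were 2.17 to 17 in WT and 6.67 to 54.4 in BIT mice. The highest was that of BIT 2, with *Alas2* at 21.7 and *Hbb-bs* at 18.2 CPM. Those over 4 of 6 γδ T cell markers were 7.50 to 7.84 in WT and 11.0 to 13.9 in BIT mice. Of these, *Scart2* had 2.40 to 3.5 CPM in WT and 6.39 to 9.02 in BIT mice, whereas *Trdc*, the constant region of the δ chain, had 4.33 to 5.03 and 3.57 to 4.80. No marker that was found was at 0 in all 6 libraries, and the part of these cells in the differences between the genotypes was not tested. In such bulk samples, fewer cells of a type and less RNA per cell cannot be told apart.

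The genes for 3 of the 4 CD3 chains lie side by side on mouse chromosome 9. On GRCm39, the build used by the files, *Cd3g* lies at chr9:44880870-44891735 on the minus strand and *Cd3d* at chr9:44893083-44899173 on the plus strand, so that these genes are read away from each other from starts 1348 bases apart. *Cd3e* lies at chr9:44910037-44920925 on the minus strand, with its start 27828 bases from that of *Cd3d*. *Cd247*, the gene of the ζ chain, lies at chr1:165616250-165704846 on the plus strand. These genes make up the signalling part of the receptor itself, and the 250 bases before each canonical start are shown, 5′ to 3′ in the direction of the gene. Capitals mark exact matches on either strand to the 6 short motifs named after the sequences.
Cd3e, chr9:44920912-44921161, minus strand: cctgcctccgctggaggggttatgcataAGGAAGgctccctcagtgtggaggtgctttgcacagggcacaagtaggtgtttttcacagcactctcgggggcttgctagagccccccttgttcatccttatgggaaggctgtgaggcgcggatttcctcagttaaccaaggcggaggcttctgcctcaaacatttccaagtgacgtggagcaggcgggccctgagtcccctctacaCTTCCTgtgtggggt
Cd3d, chr9:44892833-44893082, plus strand: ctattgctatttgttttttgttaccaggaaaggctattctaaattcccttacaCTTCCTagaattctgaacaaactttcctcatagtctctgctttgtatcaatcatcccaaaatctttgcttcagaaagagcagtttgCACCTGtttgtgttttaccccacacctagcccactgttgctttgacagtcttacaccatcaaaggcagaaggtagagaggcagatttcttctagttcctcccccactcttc
Cd3g, chr9:44891736-44891985, minus strand: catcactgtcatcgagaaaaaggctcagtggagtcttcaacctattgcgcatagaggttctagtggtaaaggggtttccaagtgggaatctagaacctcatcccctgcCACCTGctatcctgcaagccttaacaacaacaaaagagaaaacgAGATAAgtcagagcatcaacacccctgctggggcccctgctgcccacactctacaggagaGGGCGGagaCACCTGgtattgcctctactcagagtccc
Cd247, chr1:165616000-165616249, plus strand: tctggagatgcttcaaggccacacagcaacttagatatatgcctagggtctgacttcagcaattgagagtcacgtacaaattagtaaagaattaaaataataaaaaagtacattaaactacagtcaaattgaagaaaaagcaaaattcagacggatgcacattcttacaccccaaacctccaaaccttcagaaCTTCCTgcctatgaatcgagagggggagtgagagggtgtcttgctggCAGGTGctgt

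The motifs were the ETS core AGGAAG, the RUNX core TGTGGT, the E-box CAGGTG, the GATA motif AGATAA, the GC box GGGCGG and the TATA box TATAAA, and no match overlapped another in these 4 windows. The ETS core, bound by a factor family that is prominent in lymphocytes, occurred at 2 places before *Cd3e*, 1 before *Cd3d*, 1 before *Cd247* and 0 before *Cd3g*. The E-box, the target of the E proteins of lymphocytes, occurred at 2 places before *Cd3g*, 1 before *Cd3d*, 1 before *Cd247* and 0 before *Cd3e*. *Cd3g* also had 1 GATA motif and 1 GC box. No window held the TATA box or the RUNX core in these letters. Of all 21770 protein-coding promoters of the same length, 28.9% held the ETS core, 17.7% the E-box, 13.0% the RUNX core, 9.60% the GATA motif, 36.3% the GC box and 11.9% the TATA box. Of the 41 promoters of the TCR genes, 22 held the ETS core, 9 the E-box, 8 the RUNX core, 7 the GATA motif, 11 the GC box and 2 the TATA box. The GC content of the windows was 57.6% for *Cd3e*, 51.6% for *Cd3g* and 41.2% for both *Cd3d* and *Cd247*.

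Levels were compared between genes as CPM per kilobase of annotated exon, since a longer transcript gives more fragments. In WT mice *Cd3e* was highest at 236 ± 8.51 (SD, n = 3), followed by the adhesion receptor *Cd2* at 200 ± 20.7 (SD, n = 3) and the kinase *Lck* at 184 ± 7.19 (SD, n = 3). *Cd2* and *Lck* did not differ beyond their spread. Between 92.2 and 120 stood the phosphatase *Ptprc* (CD45), *Cd3d*, *Cd3g*, *Lat*, the adaptor *Grap2* (GADS) and the phosphatase *Ptpn6* (SHP-1). Neighbours in this order differed by less than the sum of their SDs. So did *Ptpn6* and the next gene, *Fyb1*, at 81.3 ± 7.25 (SD, n = 3), so that no gap marks the lower end of this range. *Zap70* stood at 36.4 ± 2.98 (SD, n = 3), between *Ptpn22* at 36.8 and *Themis* at 34.7, from which it did not differ beyond the spread. The lowest levels were those of *Sos1* at 7.74 ± 0.89 (SD, n = 3), *Bcl10* at 7.09 ± 0.454 (SD, n = 3) and *Ubash3b* at 2.82 ± 0.474 (SD, n = 3), the last being lower than all others beyond the spread. When the length of the canonical transcript was used instead, a scale added after seeing the data, *Cd3e* remained highest and *Ubash3b* lowest. *Ptprc* moved to rank 2, *Cd247* from rank 15 to 6 and *Skap1* from rank 24 to 10. The middle of the order depends on which exons are counted.

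**Figure D1:**
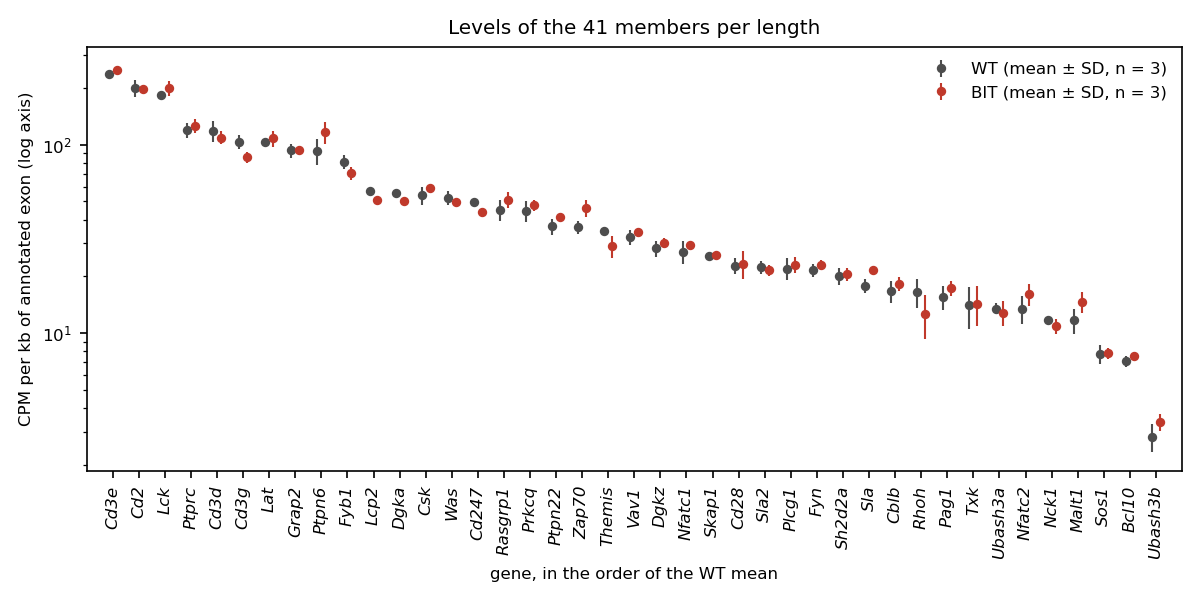
Level of the 41 TCR genes as CPM per kilobase of annotated exon (log axis), in the order of the WT mean; points are the means of 3 mice and bars the SD, WT in grey and BIT in red. The levels span from 236 for *Cd3e* to 2.82 for *Ubash3b* in WT mice, and the BIT means follow the same course.

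Differences between the genotypes were fitted with limma-voom on log2 CPM after quantile normalization, and every log2 fold change is given as BIT minus WT on that scale, ± its standard error (SE). Of the 41 TCR genes 0 passed a Benjamini-Hochberg adjusted p of 0.05, against 22 of the 16105 genes tested, or 0.137%, and 0 were changed more than 2-fold at an adjusted p of 0.01. The smallest adjusted p was 0.503, for *Themis*, and none of the alternative fits brought a TCR gene below 0.05. With unadjusted p, 3 TCR genes (*Zap70*, *Ptprc* and *Sla*) were below 0.05 and higher in BIT mice, where 4.25% of all genes tested were. Another 7 (*Cd3g*, *Cd247*, *Lcp2*, *Fyb1*, *Themis*, *Rhoh* and *Dgka*) were below 0.05 and lower in BIT mice, where 4.32% were. The values of the 3 BIT mice lay all above those of the 3 WT mice for 3 TCR genes against 7.38% of all genes, and all below for 9 TCR genes against 5.96%. For each of these 12 genes the exact two-sided permutation test gave p = 0.1, the smallest that 3 mice against 3 allow.

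The number of lower genes changed with the normalization. The libraries were also scaled by the trimmed mean of M values (TMM). The same fit then had 3 TCR genes higher (*Zap70*, *Sla* and *Malt1*; 3.64% of all genes) and 3 lower (*Fyb1*, *Themis* and *Rhoh*; 4.64% of all genes) at an unadjusted p below 0.05. The quasi-likelihood test of edgeR gave these same 6 genes, where 3.55% of all genes were higher and 3.89% lower, and so did DESeq2, where 3.61% were higher and 3.60% lower. With TMM, 7 TCR genes were higher without overlap (6.89% of all genes) and 3 lower (6.67%). Without WT 3, 5 were higher (*Zap70*, *Ptprc*, *Sla*, *Malt1* and *Ubash3b*; 5.27% of all genes) and 9 lower (*Cd3d*, *Cd3g*, *Cd247*, *Lcp2*, *Fyb1*, *Themis*, *Was*, *Rhoh* and *Dgka*; 6.43% of all genes). The median log2 fold change over the 41 genes was 0.0037, with 21 above and 20 below 0, beside a median of 0.012 over all genes tested. With TMM it was 0.071, with 26 above 0, beside -0.0033.

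The differences were small. The 95% interval of every one of the 41 log2 fold changes lay within 2-fold, and 37 of them lay within 1.5-fold in either direction. The log2 fold change was below 0.35 in size for 40 TCR genes, all but *Rhoh*, as for 77.2% of all genes tested.

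**Figure D2:**
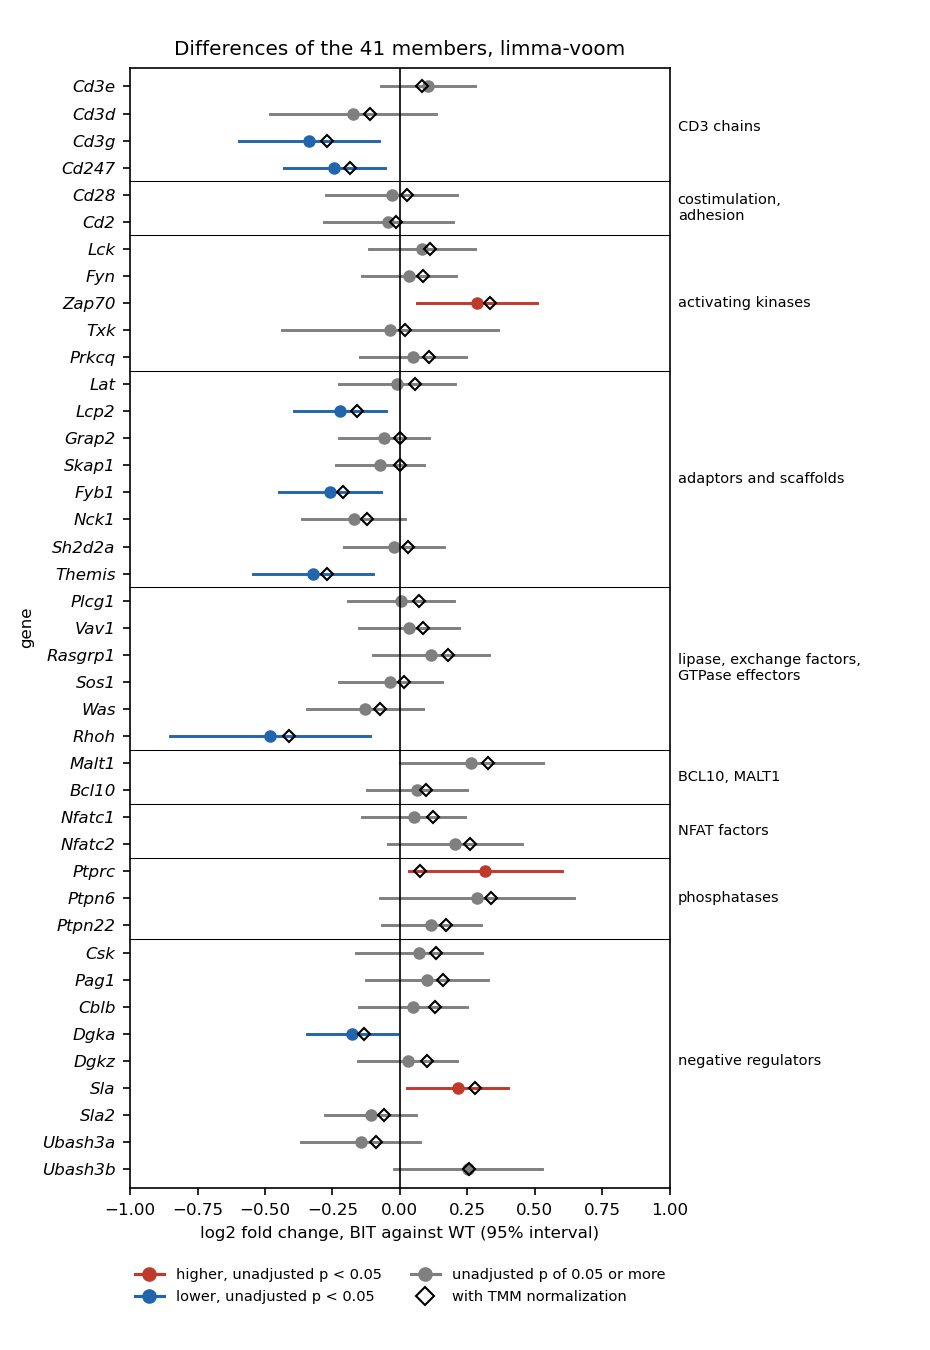
Log2 fold change of each TCR gene, BIT against WT, with its 95% interval from limma-voom (filled points, 3 mice per genotype) and with TMM normalization (open diamonds), grouped by class. All intervals lie between -0.85 and 0.64, coloured points are those at an unadjusted p below 0.05, and the diamond of *Ptprc* lies far to the left of its point.

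**Figure D3:**
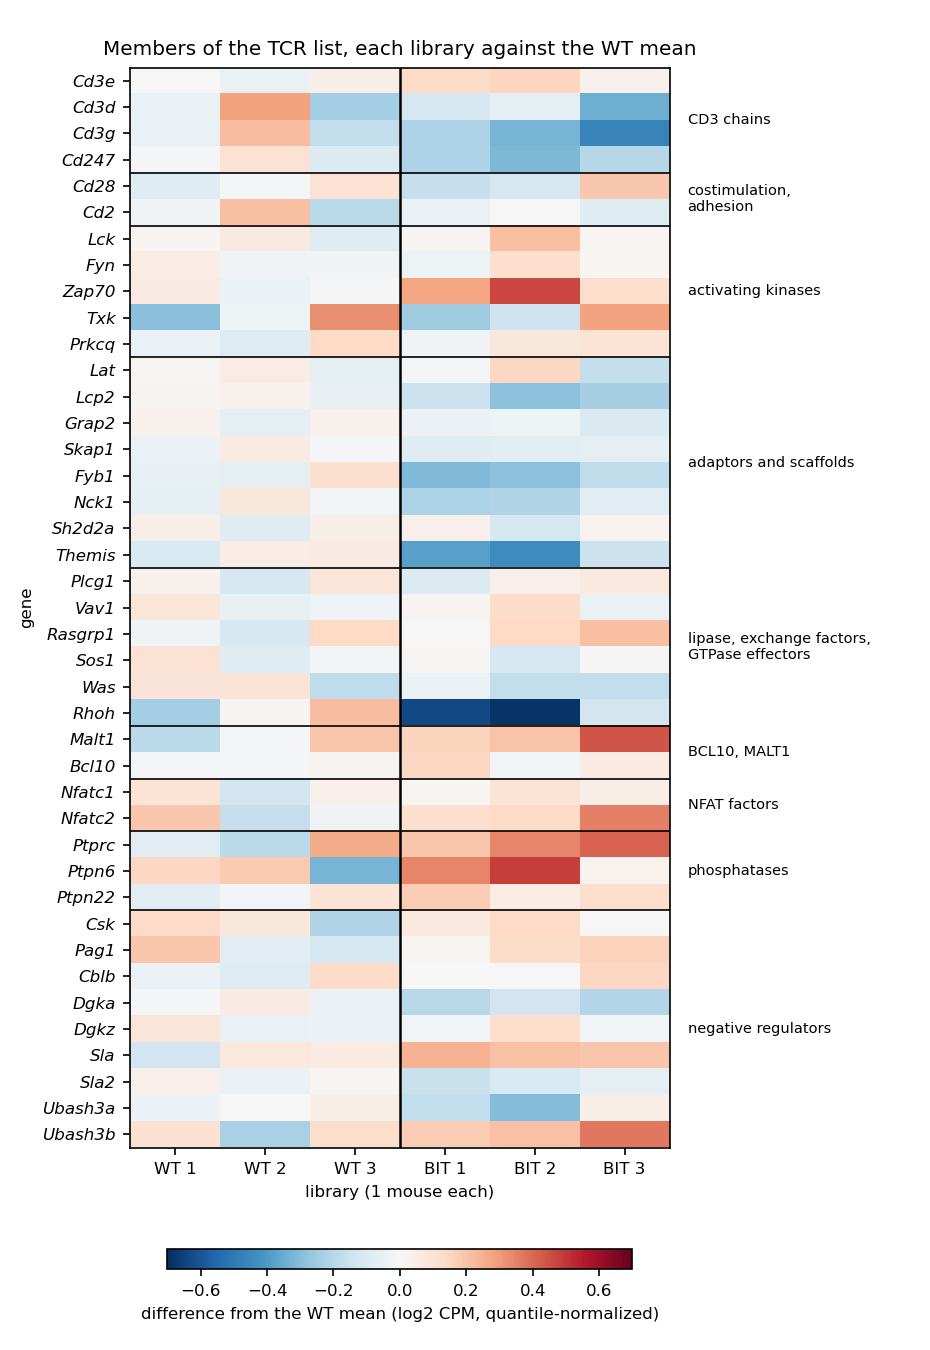
Each TCR gene in each library as its difference from the WT mean in quantile-normalized log2 CPM (colour), 1 column per mouse and 1 row per gene, ordered by class. *Themis*, *Fyb1*, *Lcp2*, *Cd247* and *Cd3g* are blue in all 3 BIT mice, *Zap70* and *Sla* are red in all 3, and *Rhoh* is dark blue in BIT 1 and BIT 2 but not in BIT 3.

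None of the 4 CD3 chains passed an adjusted p of 0.05, and a difference between the chains in their response was not tested. *Cd3e*, whose product pairs with both CD3γ and CD3δ, stood at 9.91, 9.86 and 9.95 log2 CPM in the WT and 10.04, 10.06 and 9.93 in the BIT mice, and the genotypes overlapped (0.10 ± 0.077, adjusted p = 0.731). *Cd3g* stood at 8.39, 8.66 and 8.27 log2 CPM in the WT and 8.22, 8.11 and 7.97 in the BIT mice, and all BIT mice were below all WT mice (-0.34 ± 0.11, adjusted p = 0.531). *Cd247* was at 8.22, 8.33 and 8.13 log2 CPM in the WT and 8.01, 7.91 and 8.03 in the BIT mice, again with no overlap (-0.24 ± 0.082, adjusted p = 0.531). The γ and ζ chains were thus lower in every BIT mouse on this scale, whereas the ε chain was not. *Cd3d*, the neighbour of *Cd3g*, stood at 8.23, 8.56 and 8.05 log2 CPM in the WT and 8.16, 8.22 and 7.94 in the BIT mice, and here WT 3 lay among the BIT mice (-0.17 ± 0.14, adjusted p = 0.744). Without WT 3 its log2 fold change was -0.29, that of *Cd3g* -0.42 and that of *Cd247* -0.29. With TMM the differences of *Cd3g* and *Cd247* were -0.27 and -0.19, and the groups of all 4 CD3 chains overlapped. Exons of *Cd247* overlap those of a noncoding gene on its own strand, and its counts were fractional in all 6 libraries, so its level may include reads shared with that gene. On the opposite strand, exons of *Pou2f1*, with 2129 to 2560 counts, overlap 3007 of the 5887 exon bases of *Cd247*. The part of this overlap in its level was not tested.

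Ratios of counts within a library need no scaling between libraries. Such ratios were added after seeing the values above and were not tested. *Cd3g* had 0.353 ± 0.0382 counts per count of *Cd3e* in WT mice and 0.276 ± 0.00736 in BIT mice (mean ± SD, n = 3), from 0.324 to 0.396 and from 0.268 to 0.282, with no overlap. *Cd247* had 0.304 ± 0.00942 and 0.253 ± 0.0211 per count of *Cd3e*, from 0.298 to 0.315 and from 0.240 to 0.277, also with no overlap. *Cd3d* had 0.318 ± 0.0467 and 0.276 ± 0.0193, and the groups overlapped. In these ratios *Cd3g* and *Cd247* were lower relative to *Cd3e* in each BIT mouse than in each WT mouse. They come from the same counts as above, and *Cd3e* itself had a log2 fold change of 0.10 ± 0.077, so they are no separate support.

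**Figure D4:**
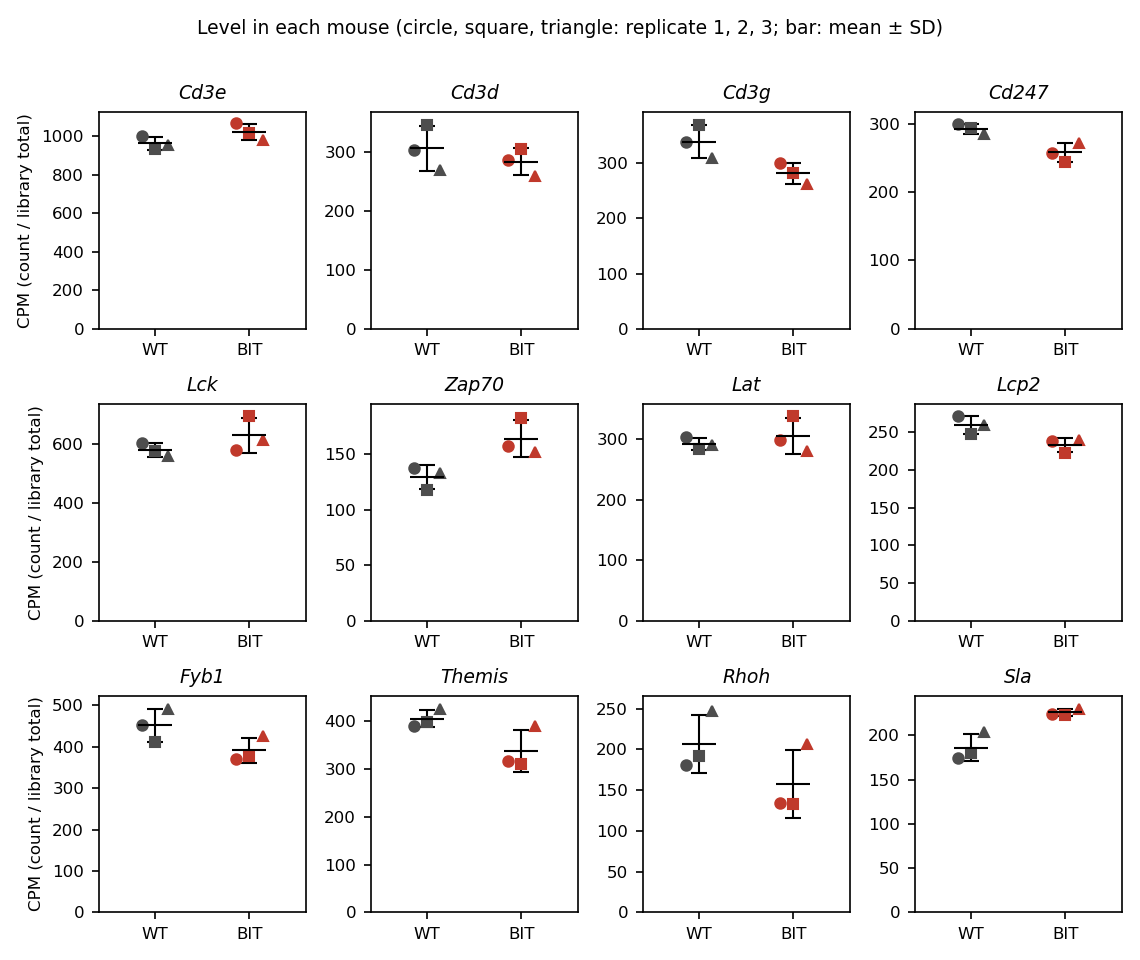
CPM, as the count over the library total, of 12 TCR genes in each of the 3 WT (grey) and 3 BIT mice (red); circle, square and triangle are replicates 1, 2 and 3, and the bar is the mean ± SD. With this plain scaling *Cd3g*, *Cd247*, *Lcp2* and *Themis* lie lower and *Zap70* and *Sla* higher in every BIT than in any WT mouse, while *Cd3e*, *Cd3d*, *Lck*, *Lat*, *Fyb1* and *Rhoh* overlap.

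The costimulatory receptor *Cd28*, which binds CD80 and CD86, and the adhesion receptor *Cd2*, which binds CD48, had log2 fold changes near 0. *Cd28* stood at 7.06, 7.13 and 7.25 log2 CPM in the WT and 6.99, 7.03 and 7.34 in the BIT mice (-0.031 ± 0.11, 95% interval -0.27 to 0.21, adjusted p = 0.953). *Cd2* was at 8.58, 8.81 and 8.42 log2 CPM in the WT and 8.56, 8.61 and 8.52 in the BIT mice (-0.043 ± 0.10, adjusted p = 0.927). In both genes the WT and BIT values were intermingled, and *Cd28* was above 0 with TMM, at 0.026.

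Among the activating kinases *Zap70* had the largest difference. It lies at chr1:36800837-36821905 and encodes the kinase that docks on the phosphorylated CD3 and ζ tails. It stood at 7.10, 7.0 and 7.03 log2 CPM in the WT and 7.32, 7.51 and 7.17 in the BIT mice. The 3 BIT mice were all above the WT mice, with a fitted level 1.22 times that of WT (0.29 ± 0.098, 95% interval 0.065 to 0.51, adjusted p = 0.531). The difference had about the same size with TMM (0.34) and without WT 3 (0.28). Its unadjusted p was below 0.05 in 5 of the 6 fits that left out 1 mouse, all but that without BIT 2. *Lck*, whose product phosphorylates the tails beforehand, was at 9.22, 9.26 and 9.12 log2 CPM in the WT and 9.22, 9.41 and 9.21 in the BIT mice (0.082 ± 0.087, 95% interval -0.12 to 0.28, adjusted p = 0.812). BIT 2 was above the other 5 mice. *Txk*, a TEC family kinase, varied more within each genotype than between them, at 6.98, 7.24 and 7.59 log2 CPM in the WT and 7.02, 7.13 and 7.55 in the BIT mice (-0.037 ± 0.18, adjusted p = 0.965), and was highest in replicate 3 of both genotypes. *Fyn*, an SRC family kinase beside LCK, and *Prkcq*, the protein kinase C θ that leads to NF-κB, had log2 fold changes of 0.033 and 0.049. The level of *Lck* per exon length was 8.53 ± 0.601 times that of *Fyn* in WT and 8.67 ± 0.372 times in BIT mice (SD, n = 3), and the mice overlapped. By the length of the canonical transcript the mean ratio was 4.90 in WT and 4.98 in BIT mice. A difference of *Zap70* from *Lck* in its response was not tested.

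The 8 adaptors and scaffolds all had a log2 fold change below 0, with a median of -0.12, and in 5 of them all BIT mice lay below all WT mice. Over all genes tested 52.3% had a log2 fold change above 0, and 5.96% had all BIT mice below all WT mice. With TMM, 6 of the 8 were below 0 and 2 above, the median was -0.061, and *Themis*, *Fyb1* and *Nck1* remained without overlap. *Themis*, a T cell protein that binds SHP-1 and is needed for positive selection, lies at chr10:28544356-28759814. It stood at 8.58, 8.74 and 8.75 log2 CPM in the WT and 8.31, 8.25 and 8.54 in the BIT mice. It was lower in every BIT mouse and had a fitted level 0.799 times that of WT (-0.32 ± 0.098, 95% interval -0.55 to -0.10, adjusted p = 0.503). *Fyb1*, which encodes the adaptor ADAP that couples the TCR to integrins, lies at chr15:6552334-6692794. It stood at 8.80, 8.79 and 8.96 log2 CPM in the WT and 8.54, 8.56 and 8.67 in the BIT mice, again lower in every BIT mouse (-0.26 ± 0.083, adjusted p = 0.511). *Themis* and *Fyb1* were the 2 TCR genes with an unadjusted p below 0.05 in all 6 fits that left out 1 mouse. With TMM their log2 fold changes were -0.27 and -0.21. The counts of *Fyb1* were fractional in all 6 libraries, and a processed pseudogene with 82.79 to 158.03 counts overlaps its exons on the same strand.

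*Lcp2*, which encodes SLP-76, the partner of LAT in the scaffold, lies at chr11:33996920-34042426. It stood at 8.07, 8.08 and 8.0 log2 CPM in the WT and 7.90, 7.76 and 7.82 in the BIT mice, lower in each BIT mouse (-0.22 ± 0.075, adjusted p = 0.531). With TMM its groups overlapped (-0.16). *Lat* itself had 8.24, 8.28 and 8.16 log2 CPM in the WT and 8.21, 8.38 and 8.06 in the BIT mice, with the genotypes intermingled (-0.011 ± 0.094, 95% interval -0.23 to 0.20, adjusted p = 0.979). *Nck1*, an adaptor that binds a proline-rich stretch of CD3ε, had 5.84, 5.99 and 5.89 log2 CPM in the WT and 5.69, 5.69 and 5.83 in the BIT mice, lower in each BIT mouse under both normalizations (-0.17 ± 0.084, adjusted p = 0.63). *Skap1*, the partner of ADAP, stood at 7.76, 7.86 and 7.80 log2 CPM in the WT and 7.72, 7.73 and 7.74 in the BIT mice, without overlap but with a difference of only -0.073 ± 0.071 (adjusted p = 0.799), which was -0.00054 with TMM. The others were *Grap2*, which bridges LAT and SLP-76, at -0.06, and *Sh2d2a*, an adaptor that binds LCK, at -0.022.

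Among the phospholipase, exchange factors and GTPase effectors, *Rhoh* had the lowest log2 fold change of all 41 genes. It encodes a GTPase-deficient protein that helps to bring ZAP70 to the receptor and lies at chr5:66018171-66054043. Its values were 7.48, 7.74 and 7.93 log2 CPM in the WT and 7.09, 7.03 and 7.59 in the BIT mice, and the genotypes overlapped (-0.48 ± 0.16, 95% interval -0.85 to -0.11, adjusted p = 0.531). BIT 1 and BIT 2 were below all other mice while BIT 3 was above WT 1. In both genotypes replicate 3 had the highest value, and the log2 fold change from replicates 1 and 2 alone was -0.54. With TMM it was -0.41, and without WT 3 it was -0.37.

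*Rasgrp1*, the exchange factor that activates Ras on diacylglycerol, was at 8.13, 8.04 and 8.29 log2 CPM in the WT and 8.15, 8.29 and 8.36 in the BIT mice, overlapping, with the highest log2 fold change of this class (0.11 ± 0.095, adjusted p = 0.758). With TMM its groups no longer overlapped (0.18). *Plcg1*, the phospholipase that makes diacylglycerol and inositol trisphosphate, differed by 0.0037 ± 0.086. *Vav1*, the exchange factor for RAC, differed by 0.033 ± 0.081, and *Sos1*, the other exchange factor for Ras, by -0.035 ± 0.084. *Was*, which promotes actin assembly, lies on the X chromosome and stood at 7.24, 7.24 and 6.98 log2 CPM in the WT and 7.11, 6.98 and 6.98 in the BIT mice. Its log2 fold change was -0.13 ± 0.095 (adjusted p = 0.726) with all mice and -0.22 without WT 3, the library that went against its sex label.

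The paracaspase *Malt1*, which acts with BCL10 and CARMA1 upstream of NF-κB, stood at 7.57, 7.74 and 7.95 log2 CPM in the WT and 7.91, 7.95 and 8.19 in the BIT mice. BIT 1 lay below WT 3, and the log2 fold change was 0.26 ± 0.12 (adjusted p = 0.585). With TMM the genotypes did not overlap and it was 0.33, and without WT 3 it was 0.37. *Bcl10* had 5.33, 5.33 and 5.36 log2 CPM in the WT and 5.49, 5.32 and 5.40 in the BIT mice (0.064 ± 0.082, adjusted p = 0.85), with BIT 2 just below all WT mice. With TMM its BIT mice were all above its WT mice (0.097). The NFAT factors enter the nucleus after calcium signals. *Nfatc1* was at 7.82, 7.59 and 7.76 log2 CPM in the WT and 7.74, 7.82 and 7.77 in the BIT mice (0.051 ± 0.084, adjusted p = 0.89). *Nfatc2* was at 7.37, 7.02 and 7.16 log2 CPM in the WT and 7.31, 7.33 and 7.54 in the BIT mice, with WT 1 above BIT 1 and BIT 2 (0.21 ± 0.11, adjusted p = 0.645). The ratio of *Nfatc1* to *Nfatc2* per exon length was 2.02 ± 0.108 in WT and 1.84 ± 0.171 in BIT mice, and the mice overlapped.

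The 3 phosphatases had log2 fold changes above 0. *Ptprc* encodes CD45, which clears the inhibitory phosphate from LCK, and was the TCR gene with the most counts, between 96780 and 111663 per library. It stood at 10.92, 10.80 and 11.25 log2 CPM in the WT and 11.19, 11.33 and 11.40 in the BIT mice, with WT 3 above BIT 1 (0.32 ± 0.12, adjusted p = 0.553). With TMM the difference was 0.074, so that most of it was seen with quantile normalization alone. Without WT 3, with quantile normalization, the log2 fold change of *Ptprc* was 0.43 (adjusted p = 0.23 by limma-voom). *Ptpn6*, which encodes SHP-1, differed by 0.29 ± 0.16 on the log2 scale (adjusted p = 0.656) and had its lowest value, 7.80, in WT 3, without which the log2 fold change was 0.12. *Ptpn22*, which dephosphorylates LCK and ZAP70, had 7.94, 8.0 and 8.12 log2 CPM in the WT and 8.20, 8.07 and 8.14 in the BIT mice (0.12 ± 0.08, adjusted p = 0.714). With TMM its BIT mice were all above its WT mice (0.17).

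Among the 9 negative regulators, 6 log2 fold changes were above 0 and 3 below. *Sla*, which encodes the adaptor SLAP that directs CD3 chains to degradation with CBL, lies at chr15:66651899-66704001. It stood at 7.43, 7.64 and 7.63 log2 CPM in the WT and 7.81, 7.77 and 7.76 in the BIT mice. The BIT mice were all above the WT mice (0.21 ± 0.083, adjusted p = 0.547), as they were with TMM (0.28). Its relative *Sla2* had 6.24, 6.15 and 6.21 log2 CPM in the WT and 6.05, 6.10 and 6.14 in the BIT mice, lower in BIT mice without overlap (-0.11 ± 0.075, adjusted p = 0.714) except with TMM (-0.058). *Dgka*, a diacylglycerol kinase that removes the lipid on which RASGRP1 acts, had 9.12, 9.19 and 9.09 log2 CPM in the WT and 8.94, 9.00 and 8.93 in the BIT mice, lower in each BIT mouse (-0.18 ± 0.073, adjusted p = 0.559). With TMM its groups overlapped (-0.13). *Ubash3b*, a phosphatase that acts on ZAP70, was at 4.51, 4.17 and 4.52 log2 CPM in the WT and 4.58, 4.61 and 4.77 in the BIT mice and was higher in each BIT mouse (0.25 ± 0.12, adjusted p = 0.629), also with TMM (0.25). Its relative *Ubash3a* differed by -0.15 ± 0.097 on the log2 scale (adjusted p = 0.703). The others, namely *Csk*, the kinase that inhibits LCK, its membrane anchor *Pag1*, the ubiquitin ligase *Cblb* and *Dgkz*, had log2 fold changes of 0.071, 0.10, 0.05 and 0.029.

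Within the pairs of relatives, the ratio per exon length was set beside the single genes, as values without a test. The ratio of *Sla* to *Sla2* was 0.801 ± 0.0749 in WT and 1.01 ± 0.0553 in BIT mice (mean ± SD, n = 3), higher in every BIT mouse. By the length of the canonical transcript its means were 2.39 and 3.01, so which gene stood higher depends on the length used. That of *Ubash3a* to *Ubash3b* was 4.84 ± 0.572 and 3.8 ± 0.283, and that of *Dgka* to *Dgkz* was 1.97 ± 0.171 and 1.67 ± 0.0442, both lower in every BIT mouse. Exons of *Rab5if* and *Pym1* overlap those of *Sla2* and *Dgka* on the opposite strand. The library kit keeps the strand, the strand setting of the counting is not given in the sources used here, and the counts of *Sla2* and *Dgka* were whole in all 6 libraries.

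By class, the median log2 fold change was -0.21 for the CD3 chains (-0.15 with TMM) and -0.037 for the costimulatory and adhesion receptors (0.0064). It was 0.049 for the activating kinases (0.11) and -0.12 for the adaptors (-0.061). It was -0.016 for the lipase, exchange factors and GTPase effectors (0.042), 0.16 for *Malt1* and *Bcl10* (0.21), 0.13 for the NFAT factors (0.19), 0.29 for the phosphatases (0.17) and 0.05 for the negative regulators (0.13). The class medians per mouse, as the deviation from the WT mean, were between -0.27 and -0.17 for the CD3 chains in BIT mice and between -0.13 and 0.16 in WT mice. For the adaptors they were between -0.17 and -0.12 in BIT and between -0.020 and 0.041 in WT mice. Those for the phosphatases were between 0.12 and 0.34 in BIT and between -0.071 and 0.098 in WT mice. Without WT 3 the medians of the log2 fold changes were -0.29 for the CD3 chains, -0.13 for the adaptors, 0.17 for the phosphatases, 0.12 for the activating kinases and 0.0091 for the negative regulators. The class medians per mouse are on the quantile-normalized scale alone. With all mice used, the 2 genotypes did not overlap in them for the CD3 chains, the adaptors and the phosphatases, and in the other 6 classes they did. Of the 3 phosphatases, 0 had genotypes without overlap as single genes on this scale, whereas with TMM *Ptpn22* had none. These are descriptions of chosen lists, and no class was tested as a set.

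**Figure D5:**
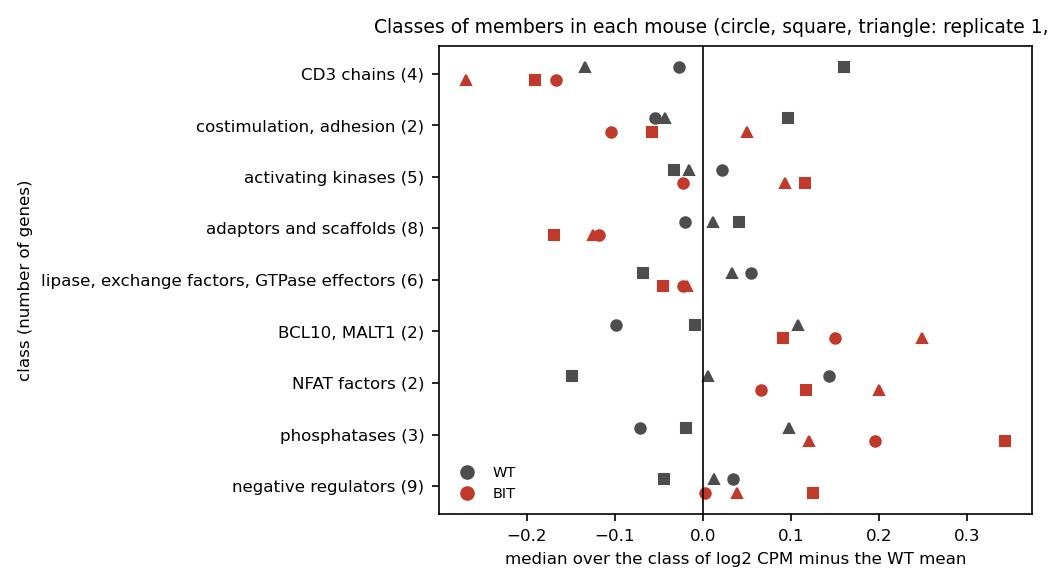
Median over each class of the difference from the WT mean in quantile-normalized log2 CPM, 1 point per mouse (WT grey, BIT red; circle, square and triangle are replicates 1, 2 and 3), with the number of genes in parentheses. The red points of the CD3 chains and adaptors lie left of all grey points, those of the phosphatases lie right of them, and the other classes overlap.

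A list of 68 other genes of the pathway, from the TCR chains to calcineurin, the MAP kinases and further regulators, was read beside these. All 68 were tested and 0 passed an adjusted p of 0.05. With unadjusted p, 6 were below 0.05 and higher in BIT mice and 2 lower, where 4.25% and 4.32% of all genes tested were, and the median log2 fold change was 0.020. The smallest p values were those of a pair of neighbouring genes for receptors that dampen TCR signals. *Cd5* stood at 7.33, 7.34 and 7.49 log2 CPM in the WT and 7.67, 7.77 and 7.70 in the BIT mice (0.33 ± 0.079, adjusted p = 0.349). *Cd6* stood at 7.90, 7.85 and 7.98 log2 CPM in the WT and 8.19, 8.23 and 8.25 in the BIT mice (0.32 ± 0.074, adjusted p = 0.346). Each was higher in every BIT mouse under both normalizations. DESeq2 gave adjusted p of 0.00675 for *Cd5* and 0.00455 for *Cd6*, the only TCR pathway genes that passed 0.05 in any of the fits run; DESeq2 called 125 genes in all, or 0.776% of those tested.

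The other higher genes were an adaptor, a calcium-dependent phosphatase and a pair of regulators of inositol lipids. *Sh3bp2*, an adaptor that binds SYK family kinases, differed by 0.61 ± 0.17 on the log2 scale (adjusted p = 0.424). *Ppp3ca*, a catalytic subunit of calcineurin, differed by 0.28 ± 0.077 (adjusted p = 0.424). *Inpp5d*, the lipid phosphatase SHIP1, and *Pik3r1*, a regulatory subunit of PI3 kinase, differed by 0.25 ± 0.085 and 0.22 ± 0.077 (adjusted p = 0.535 for both). Each of these 4 was higher in every BIT mouse. The lower genes were *Sh2d1a*, which encodes the adaptor SAP (-0.25 ± 0.10, adjusted p = 0.553), and *Trbc1*, a constant region of the TCR β chain. *Trbc1* stood at 7.66, 8.01 and 7.45 log2 CPM in the WT and 7.39, 7.22 and 7.15 in the BIT mice (-0.45 ± 0.14, adjusted p = 0.503), with no overlap except with TMM. Its near-identical copy *Trbc2*, with which it shares reads, differed by -0.21 ± 0.11 (adjusted p = 0.656), so that the split between them is uncertain. *Trac*, the α chain constant region, differed by 0.13 ± 0.091 (adjusted p = 0.718).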

How the data were processed

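Total RNA depleted of ribosomal RNA was sequenced in paired ends from 3 WT and 3 BIT mice. Per the paper's methods and the processing notes, the authors used Cutadapt 1.18 for trimming, STAR 2.7.0f for alignment to GRCm39 and RSEM 1.3.1 with Gencode genes for counting. The deposited values are estimated counts, not normalized, of which 84.8% of those above 0 were whole. RSEM divides reads that match several genes among them.

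Estimated counts were rounded, and 16105 genes kept by filterByExpr of edgeR 4.0.16 were fitted with voom, lmFit and eBayes of limma 3.58.1 in R 4.3.3 after quantile normalization, with Benjamini-Hochberg adjustment over all of them and a threshold of 0.05. The normalization and the test are those the study names. Unadjusted p below 0.05 were counted as a description beside the share of all genes. Quantile normalization and TMM both assume that most genes do not shift one way. Nothing in the sources used here states that mice of the same number belong together, and each library is 1 mouse, so p-values measure the spread between mice.

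Alternatives were TMM, edgeR's quasi-likelihood test, DESeq2 1.42.0, other filters, weights by sample quality, a replicate block, replicate 3 as a batch, replicates 1 and 2 alone and each mouse left out. Levels per length used Gencode M39 exons, which is not the Gencode release that the paper names for its counts. Promoters were read from GRCm39. The 41 genes, the classes, the 68 other pathway genes, the marker lists and the rule for named genes (values by library for the CD3 chains, *Lck*, *Zap70*, *Lat*, each TCR gene with an unadjusted p below 0.05 or without overlap and the extremes of each class) were chosen with earlier results of these data known. Of the γδ markers, *Tcrg-C1* and *Tcrg-C2* were not matched by symbol.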

Additional observations from a re-analysis of the deposited data

How the results depend on the processing

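No alternative brought a TCR gene to an adjusted p below 0.05. The smallest adjusted p of any of them was 0.547 with TMM, 0.572 with edgeR, 0.158 with DESeq2, 0.144 with the replicate block and 0.072 with replicate 3 as a batch. The number of TCR genes higher at an unadjusted p below 0.05 was 3 as reported, where 685 of all 16105 genes tested were. It was 5 without a filter on low counts (976 of 30009 genes) and 5 with replicates 1 and 2 alone (1073 of 16185). It was 6 with the replicate block (952 of 16105) and 6 with replicate 3 as a batch (1102 of 16105). Leaving out 1 mouse gave 0 without BIT 2 (329 of 16874) to 5 without WT 3 (869 of 16502). The number lower was 7 as reported, where 695 of all 16105 genes were. It was 3 with TMM (748 of 16105 genes), with edgeR (627) and with DESeq2 (580). With 1 mouse left out it was 4 without WT 2 (428 of 16639) or BIT 2 (319 of 16874), and up to 9 without WT 3 (1061 of 16502). With TMM, 7 TCR genes were higher and 3 lower without overlap, against 6.89% and 6.67% of all genes. The replicate numbers were not taken to pair the mice, since nothing in the sources used here states that they do. Deviations of same-numbered mice correlated across genes at 0.139, 0.0255 and 0.332. No correlation of differently numbered mice was set beside these, so they cannot decide whether the numbers pair the mice.

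The median over the 41 genes was 0.071 with TMM, 0.067 with edgeR and 0.072 with DESeq2, and 0.0029 to 0.042 with 1 mouse left out. That of the CD3 chains was -0.15 with TMM and with DESeq2 and -0.29 to -0.11 with 1 mouse left out. That of the adaptors was -0.061 with TMM, -0.062 with edgeR, -0.058 with DESeq2 and -0.16 with replicates 1 and 2 alone. That of the lipase, exchange factor and GTPase class was 0.042 with TMM, 0.039 with edgeR, 0.043 with DESeq2, -0.038 with sample quality weights and -0.065 to 0.018 with 1 mouse left out. That of the phosphatases was 0.17 with TMM and 0.17 to 0.28 with 1 mouse left out, that of the NFAT factors 0.054 to 0.20 and that of the activating kinases 0.019 to 0.12 with 1 mouse left out, and that of the negative regulators 0.13 with TMM and DESeq2, 0.12 with edgeR and 0.0076 to 0.072 with 1 mouse left out. The other pathway genes lower at an unadjusted p below 0.05, 2 as reported, were 1 without a filter, where 1141 of all 30009 genes were. They were 4 with sample quality weights (1031 of 16105 genes) and 5 with replicates 1 and 2 alone (1238 of 16185). With 1 mouse left out they were 1 to 4, with 4 without WT 3 (1061 of 16502).

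The single genes that turned direction had a reported log2 fold change below 0.1 in size. With TMM, edgeR and DESeq2 in turn, *Cd28* was at 0.026, 0.031 and 0.035, *Txk* at 0.020, 0.018 and 0.022, *Lat* at 0.055, 0.061 and 0.065, *Sh2d2a* at 0.030, 0.030 and 0.034, and *Sos1* at 0.014, 0.010 and 0.014. With DESeq2, *Grap2* and *Skap1* were at 0.0031 and 0.0029. With sample quality weights *Lat* was at 0.0045 and *Plcg1* at -0.016, and with replicates 1 and 2 alone *Lat* was at 0.035 and *Csk* at -0.00089. With 1 mouse left out, *Cd28* ranged from -0.14 to 0.034, *Cd2* from -0.14 to 0.061, *Fyn* from -0.0088 to 0.065, *Txk* from -0.19 to 0.12, *Lat* from -0.088 to 0.065, *Sh2d2a* from -0.062 to 0.030, *Plcg1* from -0.052 to 0.054, *Vav1* from -0.014 to 0.075, *Sos1* from -0.079 to 0.018, *Nfatc1* from -0.016 to 0.10, *Csk* from -0.034 to 0.14 and *Dgkz* from -0.017 to 0.072. Of the comparisons of a value with an alternative, 877 kept the direction and the side of the threshold, or for a value or count its size, while 41 turned direction, 26 moved in size, 11 were a count of genes larger by over 1.5 times or a gene newly past the threshold, and 11 a count smaller by over 1.5 times. With DESeq2, *Cd5* (0.39) and *Cd6* (0.38) passed an adjusted p of 0.05. The cause of these changes was not tested. The precision is limited by 3 mice a genotype, and the part of counting error in it was not tested.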

Other observations

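Of the 41 TCR genes, 3 lie on chromosome 17, the chromosome of *Psmb8* (chr17:34416690-34420428), namely *Ubash3a* at chr17:31426847-31465866, *Vav1* at chr17:57586095-57636235 and *Sos1* at chr17:80701180-80787897. Their log2 fold changes were -0.15, 0.033 and -0.035, with adjusted p of 0.703, 0.927 and 0.925 by limma-voom. With 1 mouse left out, *Ubash3a* ranged from -0.24 (without BIT 3) to -0.069 (without BIT 2), and it was -0.22 with replicates 1 and 2 alone. Its unadjusted p was below 0.05 without BIT 3 and with replicates 1 and 2 alone, and not in the other fits run.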
